A study of Mus musculus with 2 samples.

Results

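The genes described here are the vascular endothelial growth factor (VEGF) ligands, their receptors and the neuropilin co-receptors. They were taken by symbol from the table of all genes, and all 10 were found among its 37309 genes: the ligands Vegfa, Vegfb, Vegfc, Figf (the older symbol of Vegfd) and Pgf, the receptor tyrosine kinases Kdr, Flt1 and Flt4, and the neuropilins Nrp1 and Nrp2. They were measured by RNA sequencing in intestinal subepithelial myofibroblasts (ISEMFs), the contractile stromal cells that lie beneath the crypts, grown in culture from the small intestine of wild type C57BL/6 mice. There was 1 library of supportive ISEMFs, from neonatal mice, on which crypts form enteroids without added R-spondin, and 1 library of non-supportive ones, grown from adults, which support enteroids only weakly in that medium. No gene was targeted. Both populations were isolated by the same method and grown in a medium with serum, insulin, transferrin and epidermal growth factor. The stage of the mice and the cell preparation differ together with the population, so their parts cannot be told apart. How many mice were pooled and the passage of the sequenced cells are not stated. The deposited names of the libraries carry different P codes, which may give the passage, so a difference in passage may also go with the population and cannot be told apart from it.

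VEGF ligands are secreted dimers with a cystine knot that bind receptor tyrosine kinases, best known from the endothelium of blood and lymphatic vessels. VEGF-A, encoded by Vegfa, binds the receptors encoded by Flt1 and Kdr and is the main driver of blood vessel growth. VEGF-B and placental growth factor, encoded by Vegfb and Pgf, bind the Flt1 receptor. VEGF-C and VEGF-D, encoded by Vegfc and Figf, bind the Flt4 receptor and act on lymphatic vessels, which drain the gut wall and the villi. Neuropilins are co-receptors without a kinase domain that bind class 3 semaphorins as well as VEGF ligands.

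The promoters printed here are those of Figf, the member with the largest log2 ratio in favour of supportive ISEMFs, and of Vegfc and Flt4, the members with the largest ones in favour of non-supportive ISEMFs, all with 0.1 added to each RPKM. Each is 300 bases, from 250 before to 50 after the RefSeq start on build GRCm38.p6, written 5′ to 3′ on the strand of the gene. Capitals mark a TATA box (TATAAA) or a GC box (GGGCGG), searched on both strands. Figf lies at chrX:164373272-164373571 (plus strand), Vegfc at chr8:54077282-54077581 (plus strand) and Flt4 at chr11:49609429-49609728 (plus strand).
Figf: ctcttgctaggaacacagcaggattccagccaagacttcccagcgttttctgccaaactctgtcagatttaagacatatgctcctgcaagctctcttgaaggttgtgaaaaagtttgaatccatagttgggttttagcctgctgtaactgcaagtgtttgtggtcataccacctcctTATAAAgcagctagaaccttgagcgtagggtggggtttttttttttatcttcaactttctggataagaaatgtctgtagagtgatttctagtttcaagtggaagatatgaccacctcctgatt
Vegfc: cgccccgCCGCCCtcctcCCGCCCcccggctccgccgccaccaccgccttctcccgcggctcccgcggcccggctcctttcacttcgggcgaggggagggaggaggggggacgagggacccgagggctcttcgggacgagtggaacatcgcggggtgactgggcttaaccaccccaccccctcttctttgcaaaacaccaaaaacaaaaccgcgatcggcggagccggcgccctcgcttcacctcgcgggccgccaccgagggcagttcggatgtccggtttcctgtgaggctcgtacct
Flt4: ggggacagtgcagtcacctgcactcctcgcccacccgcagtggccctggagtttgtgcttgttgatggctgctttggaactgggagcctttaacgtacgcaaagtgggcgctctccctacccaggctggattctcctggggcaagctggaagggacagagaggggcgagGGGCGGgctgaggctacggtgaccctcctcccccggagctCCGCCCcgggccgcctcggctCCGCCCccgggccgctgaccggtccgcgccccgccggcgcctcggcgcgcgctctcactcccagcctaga

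RefSeq gave 12 such windows for the 10 genes. The Figf window is 42.0% G and C, where the median of all 32851 RefSeq windows is 52.7%, and both Vegfc and Flt4 are at 70.3%. The other 9 member windows lie between 59.3% and 75.3%, so Figf is the member with the lowest share. A GC box is present in 10 of the 12 windows, with Figf and 1 of the 2 windows of Pgf as the exceptions, and in 35.7% of all windows. A TATA box is present in the windows of Figf, 73 bases before the start, and of Flt1, 31 bases before it, and in 13.6% of all windows. The core of the hypoxia response element (ACGTG or GCGTG, both strands) is in 7 of the 12 and in 43.8% of all windows, and the AP-1 site TGAGTCA (both strands) is in 0 of the 12 and in 5.2% of all. These matches describe the letters of the windows and say nothing about which factors bind there.

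The supportive library held 50674472 reads on genes and the non-supportive library 49615497. Levels are given as the deposited RPKM, reads scaled by exon length and by library size. A comparison between genes rests on the exon lengths behind it, and for Vegfa it changes with the length used. A log2 ratio is that of supportive over non-supportive RPKM with 0.1 added to each, and a fold is the plain ratio of the RPKM values with its 95% exact (Clopper-Pearson) interval from the reads. With 1 library per population no difference has a replicate check, no test across genes was made, and each interval covers counting error only. In bulk RNA, fewer cells of a type and less RNA per cell cannot be told apart. The myofibroblast markers Acta2, which encodes smooth muscle α-actin, and Vim, which encodes vimentin, stood at RPKM values of 908 and 325 in supportive ISEMFs and of 1410 and 407 in non-supportive ones. Of 7 myofibroblast markers, 3 were at least 2-fold lower in supportive ISEMFs and 0 higher (9.27% and 9.01% of all genes at an RPKM of 1 in either population), namely Des, which encodes desmin (0.575 and 3.40), Myh11, a smooth muscle myosin gene (26.3 and 108), and Pdgfra, a growth factor receptor gene of fibroblasts (3.37 and 12.1).

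Supportive ISEMFs had far more RNA of the ligand Figf and less of Vegfc, of all 3 receptors and of Nrp2 than non-supportive ISEMFs. Of the 10 genes, 9 reached an RPKM of 1 in at least 1 library. Among these, 3 were at least 2-fold higher in supportive ISEMFs (Vegfb, Figf and Pgf) and 4 at least 2-fold lower (Vegfc, Flt1, Flt4 and Nrp2), while Vegfa and Nrp1 were within 2-fold and Kdr stayed below that level in both. Over all 10086 genes at that level, 18.3% differed by 2-fold, 9.01% higher and 9.27% lower. Vegfc, Pgf, Flt1 and Flt4 reached an RPKM of 1 only in the library where they were higher, so the minimum level favours a difference in them and their count is a description alone. Of the 5 genes at that level in both libraries (Vegfa, Vegfb, Figf, Nrp1 and Nrp2), 3 differed by 2-fold, where 11.5% of the 8592 such genes did. Vegfb, at a log2 ratio of 1.05, lay just past the 2-fold threshold, and Nrp1 at 0.60 and Vegfa at -0.53 were the nearest under it.

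**Figure D1:**
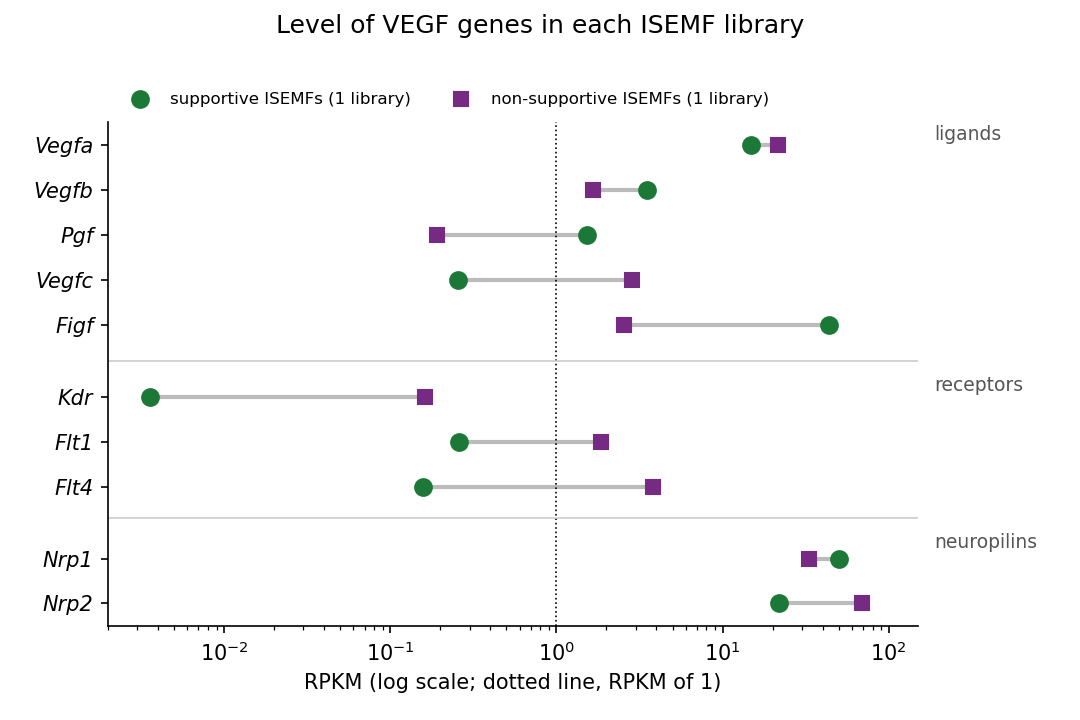
RPKM (log axis) of the 10 genes, with 1 point per library, circles for supportive and squares for non-supportive ISEMFs. Figf stands at 43.7 against 2.53, the receptors Kdr, Flt1 and Flt4 are all under 1 in the supportive library, and Nrp1 and Nrp2 are the only other genes above 30 in either library.

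Figf, the gene of VEGF-D, had the largest log2 ratio of the family with 0.1 added to each RPKM, though the plain folds of Flt4 and Kdr, in the opposite direction, were larger. It has 7 exon blocks on chromosome X of mm9 from 160811310 to 160840582 (plus strand). The supportive library held 8874 of its reads, an RPKM of 43.7, and the non-supportive library 500, an RPKM of 2.53. Its level was 17.2-fold higher in supportive ISEMFs (15.8 to 18.9), a log2 ratio of 4.06, which was rank 59 from the top among the 10086 genes. By level, Figf was gene 488 of the table in the supportive library and gene 6610 in the other.

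Vegfc, which encodes the other ligand of the Flt4 receptor, went the opposite way. It lies on chromosome 8 from 55162886 to 55271808 (plus strand) in 8 exon blocks. It had 38 reads in supportive ISEMFs (RPKM 0.255) and 411 in non-supportive ones (RPKM 2.84). This is 11.1-fold lower in the supportive library (7.97 to 15.96), a log2 ratio of -3.05 and rank 172 from the bottom. In non-supportive ISEMFs the 2 genes were at nearly the same level, with Vegfc 1.12-fold above Figf by the deposited RPKM. By the longest coding transcript the order was the other way, with Figf at 52.8% and Vegfc at 47.2% of the pair. In supportive ISEMFs Figf stood 171-fold above Vegfc. The RPKM of both genes together was 43.9 against 5.37, and Vegfc made 0.580% and 52.8% of it by RPKM.

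Among the genes named here for the processing of these ligands, Ccbe1 alone both reached an RPKM of 1 and differed by 2-fold. Ccbe1 encodes a secreted cofactor of the protease ADAMTS3, which cleaves the precursor of VEGF-C. Ccbe1 had 67 reads in supportive and 6090 in non-supportive ISEMFs, RPKM values of 0.0916 and 8.57, which is 93.5-fold lower in supportive ones (73.5 to 121). Like Vegfc, it was thus low in the supportive library. Adamts3 itself had 0 and 6 reads. The proprotein convertase genes Furin and Pcsk7, whose products process many secreted precursors, were within 2-fold, with log2 ratios of -0.74 and 0.30. Pcsk5, another convertase gene, stayed below the minimum level, at 0.518 and 0.0934.

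Vegfa was the most abundant ligand in non-supportive ISEMFs and the next after Figf in supportive ones. The gene lies on chromosome 17 from 46153942 to 46169326 (minus strand). Its 10816 reads in the supportive library gave an RPKM of 14.9, and its 15202 reads in the non-supportive library one of 21.5. It was 1.45-fold lower in supportive ISEMFs (1.41 to 1.48), a log2 ratio of -0.53. That is under the 2-fold threshold and was rank 2248 from the bottom among the 10086 genes.

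The ligands of the Flt1 receptor other than VEGF-A were both higher in supportive ISEMFs. Vegfb, on chromosome 19 from 7056963 to 7062141 (minus strand), had 438 and 200 reads, with RPKM values of 3.52 and 1.66. It was 2.13-fold higher (1.80 to 2.53), so the interval from the reads reached below 2-fold. Pgf, on chromosome 12 from 86507589 to 86518246 (minus strand), had 173 reads in supportive ISEMFs and 21 in non-supportive ones. Its RPKM values of 1.53 and 0.191 differed 8.01-fold (5.08 to 13.3), a log2 ratio of 2.49. Pgf was thus a minor ligand gene in both libraries. It made 2.40% and 0.665% of the ligand RPKM, and 1.39% and 0.269% with the longest coding transcript of each gene as the length.

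The make-up of the ligand RNA therefore differed between the libraries. Summed over the 5 ligands, the RPKM was 63.9 in supportive and 28.7 in non-supportive ISEMFs, 2.22-fold higher in the former. In supportive ISEMFs, Figf made 68.4% of that sum, Vegfa 23.3%, Vegfb 5.51% and Vegfc 0.399%. In non-supportive ISEMFs, Vegfa made 74.9%, Vegfc 9.87%, Figf 8.81% and Vegfb 5.76%. Vegfa was 8.50-fold above Figf in the non-supportive library, and Figf 2.94-fold above Vegfa in the supportive one. The summed RPKM of the Flt1 ligands was 19.9 and 23.4, which differ 1.17-fold, while that of the Flt4 ligands differed 8.19-fold. The deposited RPKM of Vegfa rests on 10168 bases of exon, against 4293 in the GENCODE annotation of the same build and 3528 in its longest coding transcript. With the reads divided by the longest coding transcript of each gene, Figf made 55.0% and Vegfa 39.0% of the ligands in supportive ISEMFs, and 4.94% and 87.2% in non-supportive ones. As shares of the reads, with no regard to length, Vegfa was ahead of Figf in supportive ISEMFs too, with 53.2% (52.5% to 53.9%) against 43.6% (42.9% to 44.3%). The reads of the 5 ligands summed to 20339 in supportive and 16334 in non-supportive ISEMFs. The 2.22-fold difference in summed RPKM therefore depends on the lengths used, that of Vegfa above all.

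**Figure D2:**
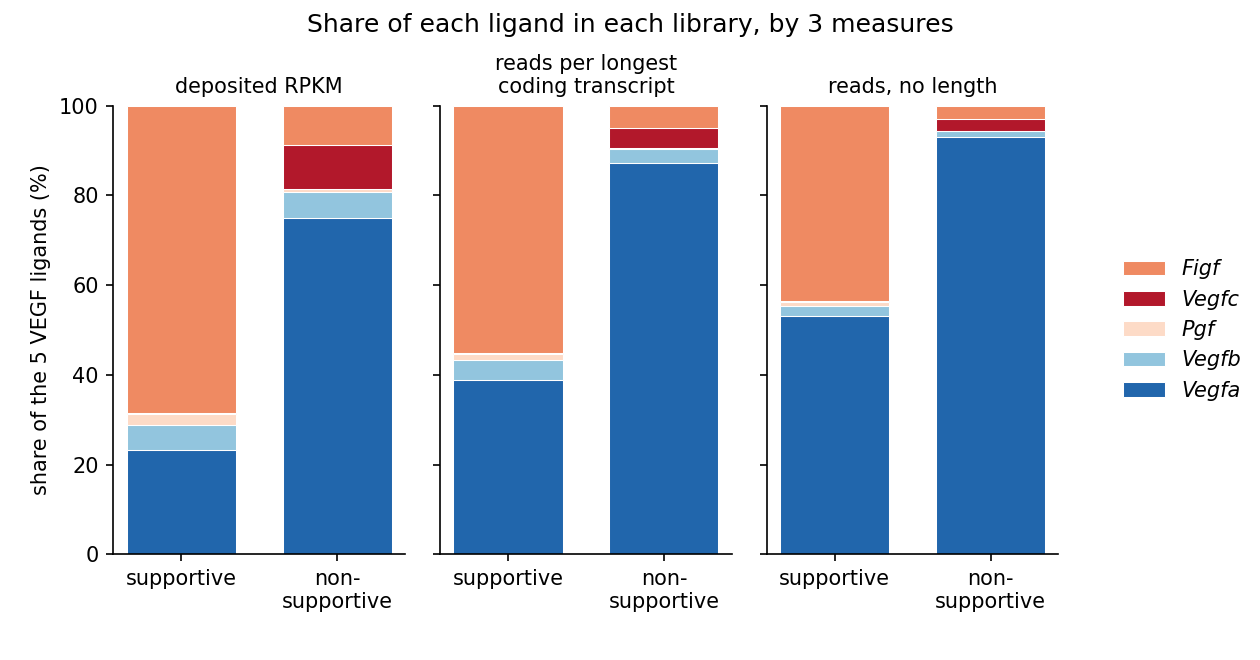
Share (%) of each of the 5 VEGF ligand genes in each library, stacked to 100%, by deposited RPKM, by reads per base of the longest coding transcript, and by reads. Figf takes 68.4%, 55.0% and 43.6% of the supportive bar and at most 8.81% of the non-supportive bar.

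Receptor RNA was scarce, and all 3 receptor genes were lower in supportive ISEMFs. Their summed RPKM was 0.422 in supportive ISEMFs against 5.84 in non-supportive ones, which is 13.8-fold lower, and well under that of the ligands in both. Flt4, on chromosome 11 from 49422765 to 49466241 (plus strand), had 98 and 2293 reads, RPKM values of 0.158 and 3.81. It was 24.1-fold lower in supportive ISEMFs (19.7 to 29.8), with a log2 ratio of -3.92 at rank 83 from the bottom. The receptor for VEGF-C and VEGF-D was therefore low in the library where Figf was high.

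Flt1 encodes a receptor that also exists in a soluble form made by splicing, which counts per gene do not separate. It lies on chromosome 5 from 148373180 to 148537587 (minus strand). Its 224 and 1557 reads gave RPKM values of 0.260 and 1.86, 7.15-fold lower in supportive ISEMFs (6.21 to 8.26), a log2 ratio of -2.44. Kdr, which encodes the main signaling receptor for VEGF-A, lies on the same chromosome from 76328852 to 76374483 (minus strand). It had 2 reads in supportive ISEMFs and 88 in non-supportive ones, RPKM values of 0.00359 and 0.162, and the ratio from so few reads, 45.3-fold lower, had an interval of 12.2 to 380. Flt1 made 61.6% of the receptor RPKM in supportive ISEMFs and Flt4 65.3% in non-supportive ones.

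Of 15 endothelial markers, 14 were under an RPKM of 1 in both, and the highest of these 14 was Plvap at 0.229 in supportive ISEMFs. Cdh5, the gene of VE-cadherin, had 0 and 7 reads, Pecam1 0 and 8, and Cldn5, Sox17 and Tie1 had 0 in both. Other markers had more reads in supportive ISEMFs, with 65 against 2 for Tek, an angiopoietin receptor gene, 33 against 1 for Plvap and 71 against 44 for Egfl7. A count of 0 still allows up to 3 reads, which for Cdh5 in the supportive library is an RPKM of 0.0105. The exception was Erg, a transcription factor gene of endothelium and other mesenchyme, with 2761 reads in supportive ISEMFs (RPKM 4.50) and 8 in non-supportive ones (RPKM 0.0134). The part of endothelial cells in the receptor levels was not tested. Of 6 lymphatic markers, Prox1, a transcription factor of lymphatic endothelium, stood at 1.33 in supportive and 0.143 in non-supportive ISEMFs, Lyve1 at 0.0161 and 0.304, and Pdpn, which fibroblasts express too, at 9.40 and 12.9. Mmrn1 and Ccl21a had 0 reads in both, and Reln had 0 and 6.

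Macrophage markers were lower in supportive ISEMFs together with the receptors. Of 15 macrophage markers, 10 reached an RPKM of 1 in either population, and these 10 were at least 2-fold lower in supportive ISEMFs, where 9.27% of all genes were. Of the 10, 9 did so only in the non-supportive library, Lyz2 being the exception, so the minimum level favours that count. The median log2 ratio of all 15 was -3.87. The summed RPKM of the 15 was 6.97 in supportive and 133 in non-supportive ISEMFs, and 8 of them, Ptprc, Itgam and Tyrobp among them, had 0 reads in the supportive library. Lyz2, the most abundant, stood at 6.31 and 72.7, and Tyrobp at 0 and 30.0. Macrophages are known to express Flt1 and neuropilins, and the part of such cells in the levels of Flt1, Flt4, Kdr, Vegfc and Nrp2 was not tested. Of 7 pericyte markers, 5 reached an RPKM of 1 in either population. Notch3 (2.38 and 0.158) and Pdgfrb (28.1 and 7.67) were at least 2-fold higher in supportive ISEMFs. Rgs5 (0.578 and 2.37) was at least 2-fold lower, and 18.3% of all genes differed by 2-fold. Notch3 and Rgs5 reached that level only in the library where they were higher, which favours a difference in them. Mcam (29.7 and 44.7) and Cspg4 (4.44 and 3.04) were within 2-fold, and Kcnj8 and Abcc9 stayed below an RPKM of 1 in both.

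The neuropilins were abundant in both libraries and went opposite ways. Nrp1, on chromosome 8 from 130882973 to 131029362 (plus strand), had 21087 reads and an RPKM of 49.95 in supportive ISEMFs, and 13542 reads and an RPKM of 33.0 in non-supportive ones. It was 1.51-fold higher in the former (1.48 to 1.55), a log2 ratio of 0.60, under the 2-fold threshold. An annotated miRNA gene, Mir1903, shares 80 bases with its exons and is the only exon overlap found among the 10 genes. Nrp2, on chromosome 1 from 62749859 to 62865269 (plus strand), had 15200 reads and an RPKM of 21.9 in supportive ISEMFs. In non-supportive ISEMFs it had 46765 reads and an RPKM of 69.3, the highest level of any of the 10 genes. Nrp2 was 3.17-fold lower in supportive ISEMFs (3.11 to 3.22), a log2 ratio of -1.66. The order of the 2 neuropilins was thus turned around, with Nrp1 2.28-fold above Nrp2 in supportive and Nrp2 2.10-fold above Nrp1 in non-supportive ISEMFs. Nrp2 is the neuropilin best known as a co-receptor for VEGF-C, and it was lower in the same library as Vegfc and Flt4.

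**Figure D3:**
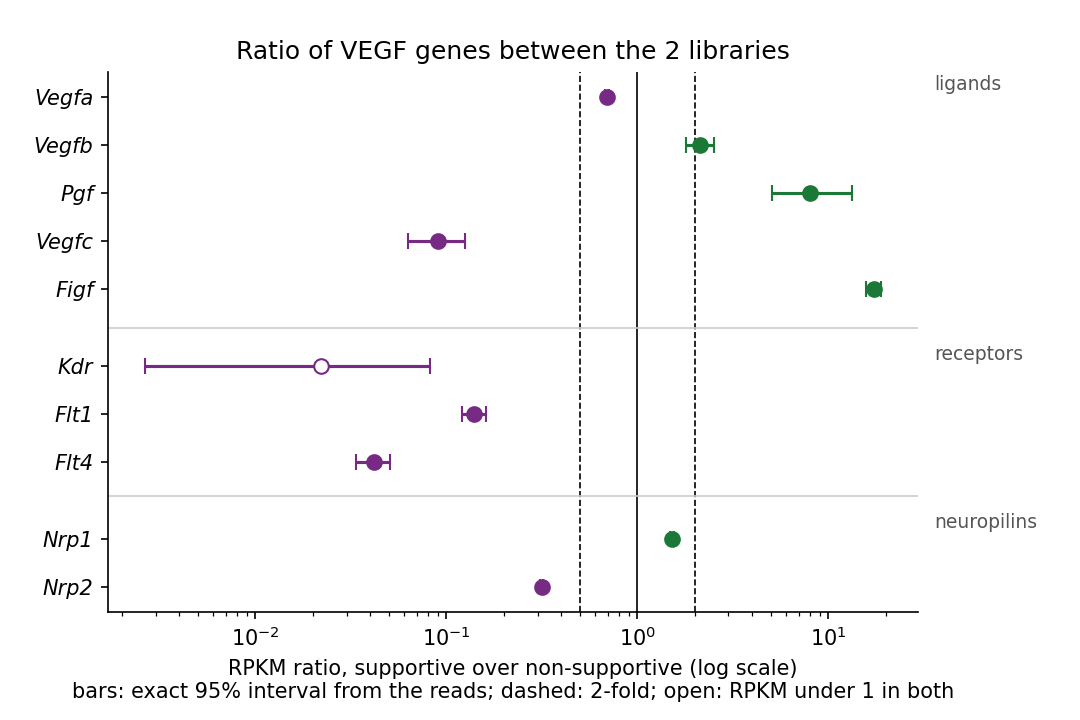
RPKM ratio of supportive over non-supportive ISEMFs (log axis) for each of the 10 genes, with the exact 95% interval from the reads as bars. Figf and Pgf lie beyond 2-fold to the right, Vegfb straddles the 2-fold line, Vegfc, the 3 receptors and Nrp2 lie beyond 2-fold to the left (Kdr, open, is under an RPKM of 1 in both libraries), and Vegfa and Nrp1 lie between the lines.

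The other partners of neuropilins also differed in both directions. Of 13 genes for class 3 semaphorins, plexins and the adaptor Gipc1, 9 reached an RPKM of 1 in either population, and 2 were at least 2-fold higher and 3 at least 2-fold lower in supportive ISEMFs. These 5 are 55.6% of the 9, beside 18.3% of all genes, but of the 4 genes at that level in both populations only Sema3a differed by 2-fold. The median log2 ratio of the 9 was -0.63. Sema3a, a repulsive guidance ligand that binds Nrp1, stood at an RPKM of 4.44 in supportive and 49.6 in non-supportive ISEMFs, 11.2-fold lower (10.8 to 11.5). Sema3d stood at 0.242 and 2.94, 12.1-fold lower, and Sema3c at 0.350 and 1.23. Sema3f, a semaphorin that binds Nrp2, was the reverse, with 637 reads against 14. Its RPKM values were 2.56 and 0.0578, 44.2-fold higher in supportive ISEMFs (26.2 to 81.3). Of the plexins, the signaling partners of neuropilins, Plxnd1 was 2.57-fold higher in supportive ISEMFs, at 1.25 against 0.484, while Plxna1, the most abundant, was level at 10.1 and 9.33.

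Genes downstream of the receptors differed by 2-fold about as often as all genes. Of the 53 genes on a list of VEGF receptor signaling, 52 were in the table and 38 reached an RPKM of 1 in either population. In this list 1 gene was at least 2-fold higher and 6 at least 2-fold lower in supportive ISEMFs, 18.4% of the 38 beside 18.3% of all genes. At 1.5-fold, 5 of the 38 were higher and 14 lower, beside 1657 higher and 1981 lower of all 10086 genes. The median log2 ratio was -0.38, beside -0.07 for all genes. Among these 38, the lowest log2 ratio was that of Ptgs2, an enzyme gene of prostaglandin synthesis that the list holds as a distant target. Ptgs2, the gene of cyclooxygenase-2, stood at an RPKM of 11.7 in supportive and 429 in non-supportive ISEMFs, 36.5-fold lower (35.3 to 37.8), and Pla2g4a, which encodes a cytosolic phospholipase A2, at 15.3 and 79.2, 5.18-fold lower. Kinases and small GTPases common to many receptors differed less, with Src (0.509 and 1.43), Pik3cb (2.05 and 5.07) and Nras (16.1 and 33.9) between 2.11-fold and 2.81-fold lower. With the median log2 ratio of all genes set to 0, Nras fell just short of 2-fold. The small heat shock protein gene Hspb1, also lower, stood at 0.665 and 1.96. Pik3r3, a regulatory subunit of phosphoinositide 3-kinase, was the 1 gene higher, at 10.7 and 5.29, which is 2.03-fold (1.93 to 2.13). Src and Hspb1 reached an RPKM of 1 only in the non-supportive library, so the minimum level favours a difference in them. Of the 33 genes at that level in both populations, Ptgs2, Pla2g4a, Nras, Pik3cb and Pik3r3 differed by 2-fold, beside 11.5% of all such genes. The kinase gene Akt1 was within 2-fold, with a log2 ratio of -0.64, and Nos3, the gene of endothelial nitric oxide synthase, had 1 and 0 reads.

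Among genes for the binding and release of VEGF ligands, 14 of 18 reached an RPKM of 1 in either population, with 2 at least 2-fold higher and 3 at least 2-fold lower in supportive ISEMFs (35.7%, beside 18.3% of all genes) and a median log2 ratio of 0.11. The higher genes were Adamts1, a protease that can also bind VEGF-A (47.9 and 5.46, 8.77-fold), and Thbs2, the angiogenesis inhibitor thrombospondin 2 (55.7 and 14.0, 3.98-fold). Besides Ccbe1, the lower genes were Ptn, the gene of the heparin-binding growth factor pleiotrophin (0.460 and 14.3, 31.0-fold), and Mmp9, the gene of a gelatinase that can release VEGF-A from matrix. Mmp9 had 0 reads in supportive and 387 in non-supportive ISEMFs, so it was at least 133-fold lower at the 3 reads that a count of 0 allows. Ccbe1, Ptn and Mmp9 reached an RPKM of 1 only in the non-supportive library, so the minimum level favours a difference in them. Of the 10 listed genes at that level in both populations, Adamts1 and Thbs2 differed by 2-fold, beside 11.5% of all such genes. The abundant matrix genes Thbs1, Sparc and Ctgf, whose products bind VEGF-A, were within 2-fold, with log2 ratios of 0.29, 0.09 and 0.49.

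Of 10 regulators of Vegfa transcription in the oxygen-sensing pathway, 9 reached an RPKM of 1 in either population, and 1 was at least 2-fold higher and 2 at least 2-fold lower in supportive ISEMFs, 33.3% beside 18.3% of all genes. Their median log2 ratio was -0.49. Epas1, which encodes the hypoxia-inducible factor HIF-2α, stood at 22.0 in supportive and 3.13 in non-supportive ISEMFs, 7.03-fold higher (6.61 to 7.49). Hif1a, which encodes HIF-1α, was within 2-fold at 28.2 and 39.6, with a log2 ratio of -0.49. Egln3, a prolyl hydroxylase gene that is itself induced by hypoxia, was at 2.30 and 17.0, 7.38-fold lower (6.68 to 8.18). Arnt2 was at 0.449 and 1.08, 2.41-fold lower, while Vhl, whose product marks hydroxylated HIF for breakdown, was within 2-fold at 5.16 and 2.70. Arnt2 reached an RPKM of 1 only in the non-supportive library, so the minimum level favours a difference in it. Of the 8 listed genes at that level in both populations, Epas1 and Egln3 differed by 2-fold, beside 11.5% of all such genes.

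**Figure D4:**
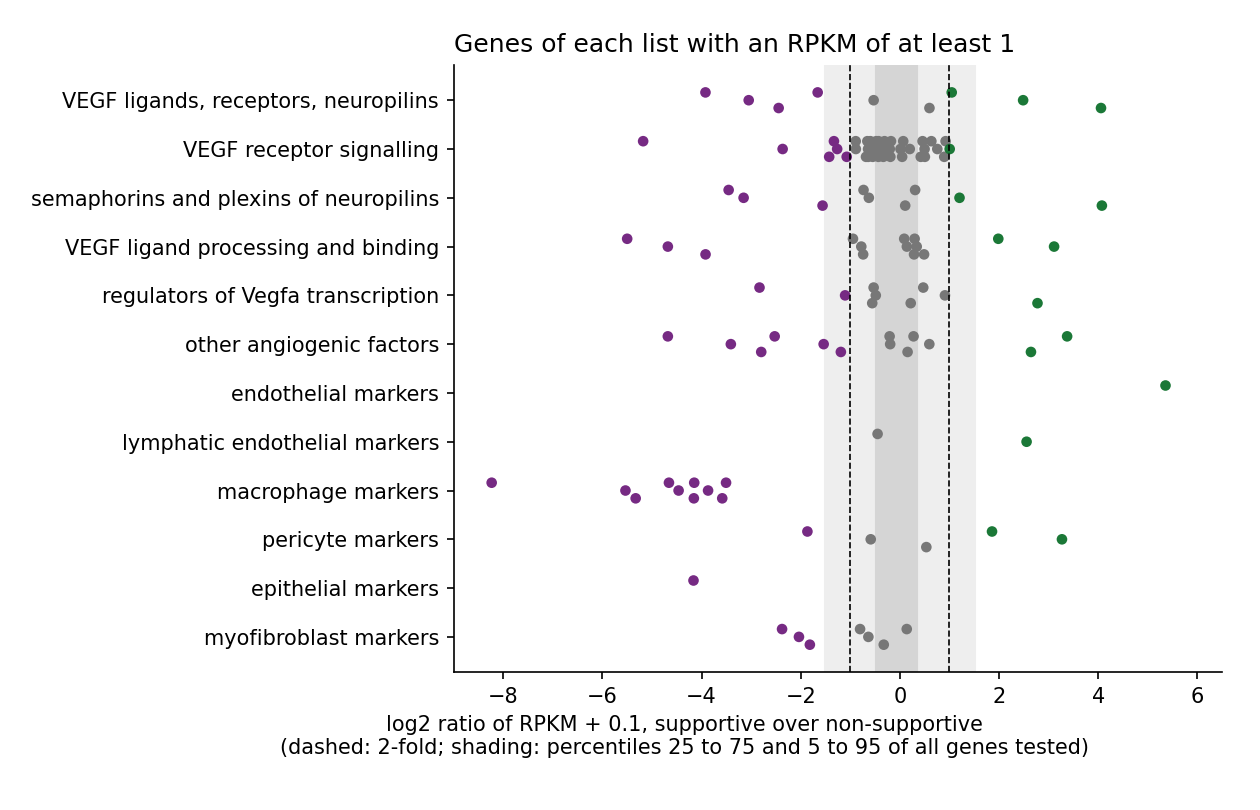
Log2 ratio of RPKM + 0.1, supportive over non-supportive ISEMFs, for each gene that reached an RPKM of 1 in either population, by list, with points past 2-fold (dashed lines) in green where higher and purple where lower, and shading from the 25th to the 75th (dark) and the 5th to the 95th (light) percentile of all such genes. Ptgs2, at -5.18, is the lowest of the signaling genes, the VEGF genes spread from -3.92 to 4.06, and the 10 macrophage markers shown lie between -8.23 and -3.51.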

How the data were processed

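RNA from 1 library of supportive and 1 of non-supportive ISEMFs was sequenced as single-end reads, which the authors aligned to mm9 with TopHat (TopHat2 2.0.4 in the submitters' processing notes) and Ensembl genes, keeping unique hits. The counts the authors deposited are HTSeq (0.5.4p3) reads per gene, without reads shared between genes. The RPKM values the authors deposited equal those counts over the union of exons and over library sizes of 71463423 and 69449374 reads. Columns of the authors' own comparison (log2 ratio, DESeq p-values) and a shorter Wnt pathway table were not used. Whether counting used strand is not given in the sources used here.

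The members and the gene lists were chosen with earlier results of these data known. Every listed gene was matched by symbol, a 2-fold difference was called where either library reached an RPKM of 1, and lists are described by counts and medians alone. Named are all members, the 2-fold genes of each list (at most 4 per direction) and the most abundant cell type markers. Others were named after their values were seen. All 37309 gene identifiers are in GENCODE vM1 on the same build, 65.7% with the same exon length, and mm9 coordinates come from it. Promoters come from RefSeq (GRCm38.p6). Replicate variation cannot be estimated from 1 library per population, so neither edgeR's nor DESeq2's test was run, and both served for scaling factors alone. The steps were tested on simulated reads with known folds and counting error alone, which says nothing about variation between cultures. The alternatives were other pseudocounts, scalings, minimum levels and fold thresholds. Intervals were computed with scipy 1.17.1 in Python 3.11.15 (pandas 2.3.3), and scaling factors with edgeR 4.0.16 and DESeq2 1.42.0 in R 4.3.3.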

Additional observations from a re-analysis of the deposited data

How the results depend on the processing

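The member log2 ratios were recomputed with pseudocounts of 1 and 0.001, a median log2 ratio set to 0, TMM factors and size factors by the median of ratios. The 10 signs were bound to hold. A pseudocount cannot change a sign, and the scalings moved the median of all genes by at most 0.07, less than any member ratio. With a pseudocount of 1, 8 of the 10 ratios lay outside their counting interval. So did 7 with the median set to 0, 6 with TMM factors and 6 with size factors. The 7 members with a 2-fold difference were the same under those scalings and the pseudocount of 0.001. With a pseudocount of 1 Vegfb was no longer among them (6 left), with a 4-fold threshold 5 were left, and Kdr made an 8th with no minimum level or with at least 10 reads. With a minimum RPKM of 5, 4 members were tested and 2, Figf and Nrp2, differed by 2-fold. Over all genes, the count of 1844 among 10086 tested became 1199 with a pseudocount of 1, 659 at 4-fold and 3638 at 1.5-fold. It was 878 of 5061 tested with a minimum of 5, 3660 of 37309 with none and 3032 of 16438 with at least 10 reads. The 7 receptor signaling genes, among 38 tested, became 6 with the median set to 0 (without Nras) and 3 with a pseudocount of 1. They became 2 at 4-fold and 19 at 1.5-fold. With a minimum of 5 they were 5 of 23 tested, with none 11 of 52, and with at least 10 reads 11 of 49. The 5 neuropilin partners became 3 with a pseudocount of 1 or at 4-fold, and 1 of 3 tested with a minimum of 5. The 5 ligand processing genes became 8 at 1.5-fold, and the 8 other angiogenic factors became 5 of 7 tested with a minimum of 5. The Vegfa share of the ligands was 53.2% and 93.1% of the reads and 39.0% and 87.2% with the longest coding transcript, which was chosen after seeing the data. No paired analysis was possible because each population has 1 library, and for the same reason none could be left out.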

Other observations

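Other angiogenic factors, chosen as a list of 26 genes, also differed in both directions. Of these, 13 reached an RPKM of 1 in either population, and 2 were at least 2-fold higher and 6 at least 2-fold lower in supportive ISEMFs, 61.5% of the 13 beside 18.3% of all genes, with a median log2 ratio of -0.21. The higher ones encode proteins known as angiogenesis inhibitors. Serpinf1, the gene of pigment epithelium-derived factor, stood at an RPKM of 146 in supportive and 14.0 in non-supportive ISEMFs, 10.4-fold higher (10.1 to 10.8), and Col18a1, whose product is the source of endostatin, at 1.64 and 0.178, 9.19-fold higher (7.71 to 11.0). Col18a1, Apln and Ptn reached an RPKM of 1 only in the library where they were higher, so the minimum level favours a difference in them. Of the 9 listed genes at that level in both populations, Serpinf1, Adm, Cxcl12, Efnb2 and Vash2 differed by 2-fold, beside 11.5% of all such genes.

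Several genes of secreted peptides with vascular roles were lower in supportive ISEMFs. Adm, the gene of adrenomedullin, stood at 6.03 and 65.0, 10.8-fold lower (9.91 to 11.7), Apln, the gene of apelin, at 0.547 and 3.62, 6.63-fold lower (5.47 to 8.08), and the chemokine gene Cxcl12 at 3.77 and 26.7, 7.10-fold lower (6.85 to 7.36). Ptn, also counted among the genes for ligand binding and release, was lower too, at 0.460 and 14.3. The membrane ligand gene Efnb2 was at 8.35 and 24.4 and Vash2 at 1.48 and 3.52. The abundant matricellular gene Cyr61 was level at 244 and 219. The angiopoietin genes were low, with Angpt1 at 0.263 and 0.0541 and Angpt2 at 1.01 and 0.820, and their receptor gene Tek had 65 and 2 reads.

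Of 8 epithelial markers, 1 reached an RPKM of 1 in either population. This was Krt20, a keratin gene of mature gut epithelium, at 0.0799 in supportive ISEMFs and 3.13 in non-supportive ones, 39.2-fold lower (21.7 to 79.1). Among the other keratin genes, Krt19 had 1 and 93 reads, Krt18 0 and 19 and Krt8 0 and 4. Cdh1, the gene of E-cadherin, was the only one of the 8 with more reads in supportive ISEMFs. It had 159 reads against 18 and RPKM values of 0.427 and 0.0497, 8.58-fold higher (5.26 to 14.9). Epcam, which marks epithelial cells, had 0 and 5 reads. The summed RPKM of the 8 markers was 0.537 against 4.08, most of the latter from Krt20.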
